A study of Mus musculus with 2 samples.

Results

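Proteasome genes were examined in adrenal gland RNA that had been read as single long molecules. Members were the annotated protein-coding genes whose symbol is Psm followed by a letter from a to g and a number. Of 48 such genes in the annotation, 47 had reads, among 17707 annotated genes with reads. The 48 comprise 8 genes of the alpha ring and 7 constitutive genes of the beta ring of the core, 3 immunoproteasome genes, Psmb11 of the thymus form, 17 genes of the cap, 3 assembly chaperones of the cap base, 4 assembly chaperones of the core, and 5 genes of other activators and an inhibitor.

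The proteasome is the protease that degrades ubiquitin-tagged proteins. Its core is a barrel of stacked alpha and beta rings, with the cutting sites on Psmb5, Psmb6 and Psmb7, and its cap binds ubiquitin chains, removes them and threads the unfolded substrate into the barrel. In immune cells and under interferon the cutting subunits are replaced by Psmb8, Psmb9 and Psmb10, which form the immunoproteasome and favour peptides for display on MHC class I. The adrenal cortex makes steroid hormones and the medulla makes catecholamines.

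The samples form 1 group of 2 libraries of adrenal gland RNA. The donors were female mice of the F1 hybrid B6CASTF1/J, aged 18 to 20 months, and each library was made from 1 µg of total RNA. The labels number the libraries as biological replicates 1 and 2. The labels give separate biosamples under the same donor entry, so whether the libraries come from separate animals is not settled here, and they name no treatment or other condition. The sources used here do not state the study's question. Comparisons between the libraries concern these libraries, and their p-values and intervals cover counting error only.

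Replicate 1 held 1478362 reads, of which 1412947 fell on annotated genes, and replicate 2 held 1007541 reads, of which 933963 fell on annotated genes. Levels are given as CPM, the reads of a gene per 1000000 reads on annotated genes. The limit set by a count of 0, at 3 reads, is 2.12 CPM in replicate 1 and 3.21 CPM in replicate 2. Markers of the adrenal cortex were all present, with Cyp11a1 at 27214 and 17278 reads in replicates 1 and 2, and so were those of the medulla, with Th at 2153 and 954 reads. The 4 skeletal muscle markers summed to 604 reads in replicate 1 and 1 read in replicate 2, and the 4 adipocyte markers to 6565 and 2961 reads. In bulk tissue, fewer cells of a type and less RNA per cell cannot be told apart.

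Sequences are shown for 2 genes whose isoforms carry the results below. Psmd4, the ubiquitin receptor gene of the cap, was read mostly as 2 forms that differ by 9 coding bases, given in capitals. They lie at chr3:95033909-95033917 (mm10, minus strand), and the letters on both sides are the shared exon ends, from the GENCODE M21 transcripts.
Psmd4-201: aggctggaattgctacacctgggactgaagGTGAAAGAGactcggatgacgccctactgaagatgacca
Psmd4-202: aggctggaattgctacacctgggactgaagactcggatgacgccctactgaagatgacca
Psmc2, which encodes an ATPase of the cap base, was read almost wholly without its annotated first exon. RefSeq lists a second start of Psmc2 inside the second exon, 97 bases after the first base of that exon. The deposited models start at that first base and not at the RefSeq start. The 30 bases around the RefSeq start, chr5:21786732-21786761 (GRCm38.p6, plus strand), have the transcribed side in capitals.
Psmc2 second RefSeq start: gggaagagaaagggaAGACACCAGCGGAAG

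The proteasome genes were read at levels well above those of most genes. They took 10017 reads in replicate 1, or 0.709% of gene reads (interval 0.695 to 0.723%), and 6857 reads in replicate 2, or 0.734% (interval 0.717 to 0.752%). The mean was 0.722 ± 0.0178% (SD, n = 2). Intervals, also where a range follows a share in parentheses, are exact 95% Clopper-Pearson intervals. One long read stands for 1 cDNA molecule, so CPM values were not divided by length, and over 46 members the level and the length of the main isoform had a Spearman rho of 0.09. The median member stood at 129 CPM, averaged over both libraries, against 15.1 CPM for the 14616 protein-coding genes with reads. Above that second median stood 45 of the 47 members, and the median member ranked at the 88.9th percentile of the coding genes. Psme4 and Psma8 stood below it. Psmb11, which encodes the catalytic subunit of the thymus form, had 0 reads in both libraries.

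The cap genes held 55.9% of the member reads in replicate 1 and 51.3% in replicate 2, a mean of 53.6 ± 3.26% (SD, n = 2). The 14 constitutive core genes other than Psma8 held 34.2% in replicate 1 and 37.6% in replicate 2, a mean of 35.9 ± 2.37%. The 3 immunoproteasome genes held 1.74% in replicate 1 (1.49 to 2.01%) and 1.47% in replicate 2 (1.2 to 1.79%). Both libraries gave the same order of cap, core and immunoproteasome genes, and the intervals of the immunoproteasome share overlapped between the libraries.

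Within the alpha ring, which gates the barrel, 7 of the 8 genes lay between 66.4 and 258 CPM in both libraries. Psma3 was highest, at 217 CPM (307 reads) in replicate 1 and 258 CPM (241 reads) in replicate 2. Psma4 was the lowest of the 7, at 77.1 and 66.4 CPM. Between them lay Psma7, Psma2, Psma6, Psma1 and Psma5, with means of 121 to 221 CPM. Psma8, whose product replaces Psma7 in germ cells of the testis, had 1 read in each library, which is under the limit that a count of 0 allows.

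The beta ring spread further than the alpha ring without Psma8. Psmb5, which carries the chymotrypsin-like site (chromosome 14, 54614119 to 54618022, minus strand, mm10), was the highest core gene, at 448 CPM (633 reads) in replicate 1 and 478 CPM (446 reads) in replicate 2. Psmb6, which carries the caspase-like site, stood at 282 and 372 CPM. Psmb7, which carries the trypsin-like site, stood at 74.3 and 92.1 CPM. These 3 subunits are used in equal number in the barrel, while the reads of their genes differed. Of the beta genes without a cutting site, Psmb1 reached 254 and 270 CPM, Psmb3 reached 166 and 182 CPM, and Psmb2 reached 132 and 126 CPM. Psmb4 was the lowest, at 59.5 and 66.4 CPM. The highest of the 14 constitutive core genes had 7.54 times the reads of the lowest in replicate 1 and 7.19 times in replicate 2, with Psmb5 at the top and Psmb4 at the bottom in both, level with Psma4 at 62 reads in replicate 2.

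The immunoproteasome genes were read in both libraries at levels below those of the genes they replace. Psmb8 (chromosome 17, 34197721 to 34201454, plus strand) stood at 40.3 CPM (57 reads) in replicate 1 and 42.8 CPM (40 reads) in replicate 2. Psmb9 (chromosome 17, 34181987 to 34187764, minus strand) stood at 19.1 CPM (27 reads) and 18.2 CPM (17 reads). Psmb10 (chromosome 8, 105935735 to 105938444, minus strand) stood at 63.7 CPM (90 reads) and 47.1 CPM (44 reads). Psmb10 was the highest and Psmb9 the lowest of the 3 in both libraries.

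Set against its constitutive partner, the immunoproteasome subunit was the minor form in every pair, but by different margins. Psmb8 made up 8.26% of the reads of Psmb8 and Psmb5 in replicate 1 (6.32 to 10.6%) and 8.23% in replicate 2 (5.94 to 11%). Psmb9 made up 6.35% of the reads of Psmb9 and Psmb6 in replicate 1 (4.23 to 9.11%) and 4.67% in replicate 2 (2.74 to 7.37%). Psmb10 made up 46.2% of the reads of Psmb10 and Psmb7 in replicate 1 (39.0 to 53.4%) and 33.8% in replicate 2 (25.8 to 42.7%). The interval of the Psmb10 share lay above those of the other pairs in both libraries, and its interval in replicate 1 includes equal reads of both genes. These shares count reads on all models of a gene. The main coding transcripts, Psmb10-201 and Psmb7-201, were further apart, with 59 and 95 reads in replicate 1 and 30 and 72 in replicate 2. Of all reads on the 6 catalytic genes, the immunoproteasome genes took 13.3% (11.5 to 15.2%) in replicate 1 and 10.3% (8.47 to 12.4%) in replicate 2. Their mean share was 11.8 ± 2.10% (SD, n = 2), and 9.95% with annotated transcripts only. In each pair the intervals of the libraries overlapped.

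**Figure D1:**
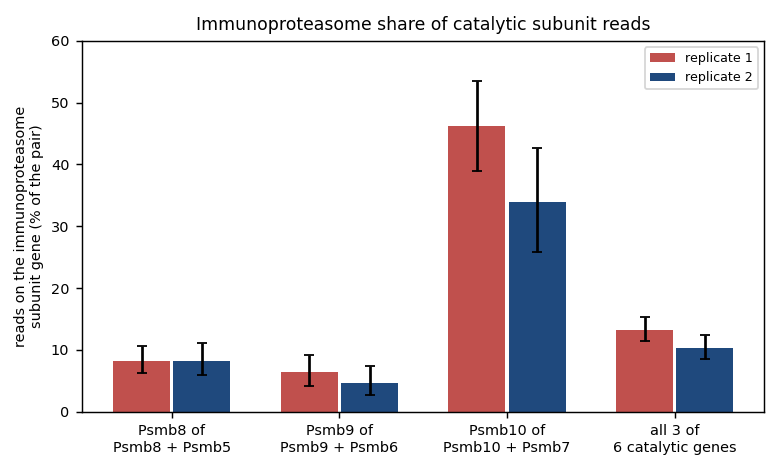
Share of reads on the immunoproteasome gene within each catalytic pair and over all 6 catalytic genes (%), for replicate 1 (left bar) and replicate 2 (right bar), with exact 95% counting intervals. Psmb10 stands at 46.2 and 33.8% of its pair, against 8.26 and 8.23% for Psmb8 and 6.35 and 4.67% for Psmb9.

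Markers of immune cells, in which the immunoproteasome is the usual form, were read in both libraries. Of 14 markers, 12 were detected, and together they took 867 reads, or 0.0614% of gene reads, in replicate 1 and 974 reads, or 0.104%, in replicate 2. The pan-leukocyte gene Ptprc had 3 reads in each library and the T cell gene Cd3e had 0 in both, while the most read were Cd74, which serves MHC class II, with 194 reads in replicate 1 and 307 in replicate 2, the lysozyme gene Lyz2 of myeloid cells, with 289 and 198, and the MHC class II gene H2-Ab1, with 110 and 190. Their means of 233, 208 and 141 CPM lay above those of all 3 immunoproteasome genes. By the binomial test, 5 of the 11 markers tested were higher in replicate 2 and 0 were higher in replicate 1. Of all genes tested, 5.74% were higher in replicate 2 and 5.88% in replicate 1. The part of immune cells in the immunoproteasome reads was not tested.

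The 6 ATPase genes of the cap base, whose products form the ring that unfolds substrates, were read more evenly than the core genes. Psmc3 was highest, at 261 CPM (369 reads) in replicate 1 and 267 CPM (249 reads) in replicate 2, and Psmc6 was lowest, at 136 and 117 CPM. The highest of the 6 had 1.92 times the reads of the lowest in replicate 1 and 2.28 times in replicate 2. The other 4, Psmc5, Psmc4, Psmc1 and Psmc2, had means of 167 to 233 CPM.

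Among the other genes of the cap base, Psmd2, which docks ubiquitin shuttles, was the highest of all members, at 702 CPM (992 reads) in replicate 1 and 697 CPM (651 reads) in replicate 2. Psmd4 followed in this class, at 312 and 322 CPM, and Psmd1 was the lowest of the 3, at 250 and 234 CPM. In the lid, which removes ubiquitin, Psmd7 had the highest mean, at 232 CPM in replicate 1 and 242 CPM in replicate 2, and Psmd13 had the lowest, at 112 and 92.1 CPM. In replicate 1 Psmd3 and Psmd12 stood above Psmd7, at 263 and 243 CPM. Psmd14, the deubiquitinase itself, stood at 115 CPM in replicate 1 and, just below Psmd13, at 91.0 CPM in replicate 2. The means of the lid genes Psmd3, Psmd12, Psmd8, Psmd11 and Psmd6 ran from 168 to 234 CPM.

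The genes that help build the proteasome were mostly read less than the genes of its parts, with a median of 39.5 CPM for the cap base chaperones and 22.7 CPM for the core chaperones, against 204 CPM for the cap and 154 CPM for the constitutive core. Of the chaperones that assemble the cap base, Psmd5 was highest, at 94.8 and 77.1 CPM, and Psmd9 lowest, at 34.7 and 24.6 CPM, with Psmd10 at 36.1 and 42.8 CPM. The 4 chaperones that assemble the core lay closer together, with Psmg1 at 28.3 and 35.3 CPM, Psmg3 at 19.1 and 28.9 CPM, Psmg2 at 21.2 and 21.4 CPM, and Psmg4 at 17 and 23.6 CPM. Psmg1 was highest in both libraries, and the lowest was Psmg4 in replicate 1 and Psmg2 in replicate 2.

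The alternative activators and the inhibitor spread widely, and the highest of the 5 had 16.1 times the reads of the lowest in replicate 1 and 19.5 times in replicate 2. Psme2, which pairs with Psme1 in the interferon-inducible activator ring, was highest, at 148 CPM (209 reads) in replicate 1 and 209 CPM (195 reads) in replicate 2. Psme1 stood at 91.3 CPM (129 reads) and 161 CPM (150 reads). Psme3, which forms the nuclear activator ring, stood at 38.9 and 47.1 CPM and made up 14 and 11.3% of the reads of the 3 ring genes. Psme4, a single-chain activator of the nucleus, was lowest, at 9.20 CPM (13 reads) and 10.7 CPM (10 reads). Of its reads, 0% lay on annotated transcripts in both libraries, and 92.3 and 90% lay on incomplete splice matches. Its main model, of 5184 bases, was the longest of the members, and the part of length in its level was not tested. Psmf1, which encodes an inhibitor of the core, stood at 36.1 and 25.7 CPM.

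**Figure D2:**
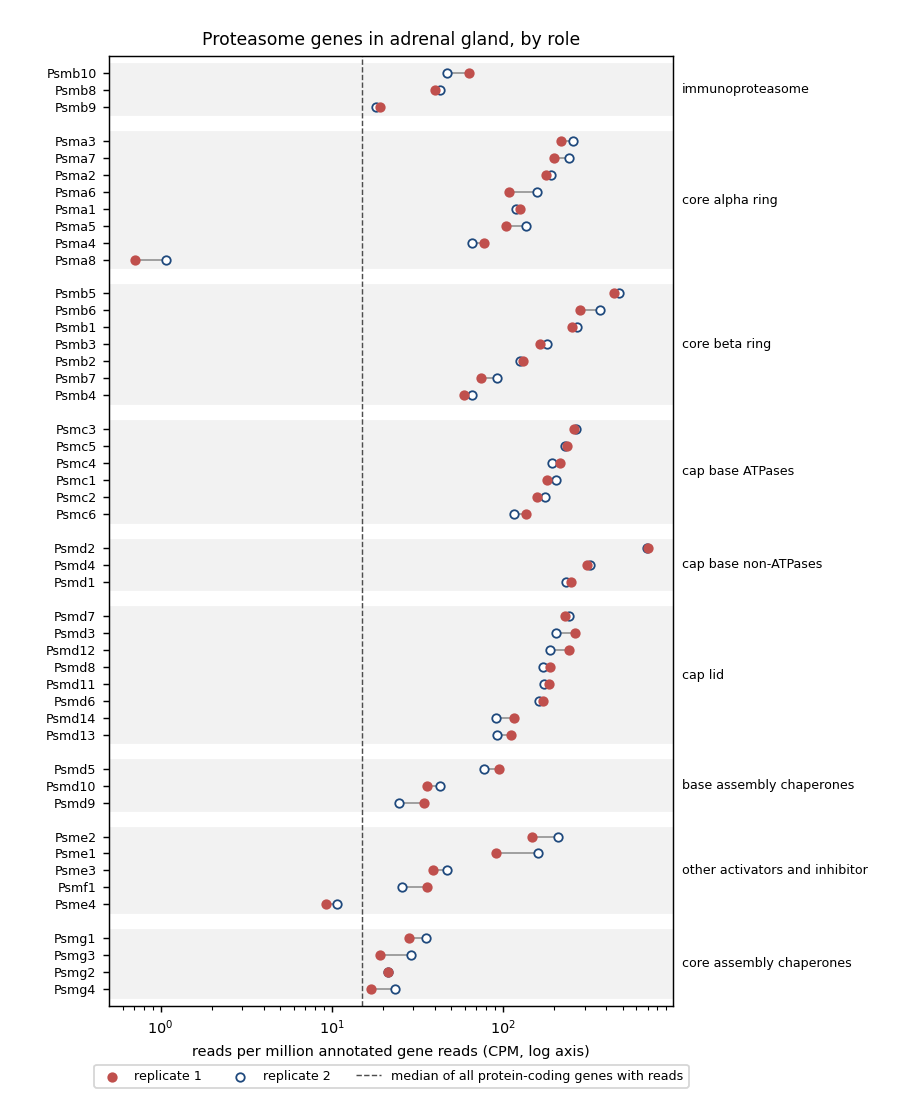
Level of each of the 47 members with reads in replicate 1 (filled) and replicate 2 (open), in CPM on a log axis, grouped by role and ordered by mean level, with the median of all protein-coding genes dashed. Psmd2 is highest, at 702 and 697 CPM, all immunoproteasome genes lie below every constitutive core gene except Psma8 and, in part, Psmb4, and Psma8 lies at 1 read in each library.

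The libraries gave closely similar levels for most members. Over 46 members with at least 10 reads, the log2 CPM of the libraries had a Pearson r of 0.977 and the CPM a Spearman rho of 0.96, given as a description across genes. After TMM scaling, which equates the bulk of genes, the median log2 ratio of replicate 1 over replicate 2 was -0.02 for members and -0.00457 for the 11068 genes tested. The interquartile range of the members' ratios ran from -0.22 to 0.15 and that of all genes from -0.38 to 0.35. These ranges were not matched for read number, and the members had more reads than most genes.

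By an exact binomial test of reads between the libraries, two-sided and adjusted by Benjamini-Hochberg over 11068 genes, 6 of 46 members differed, while 11.6% of all genes tested did. Higher in replicate 1 were 2 members, against 5.88% of all genes, and higher in replicate 2 were 4 members, against 5.74% of all genes. These shares are near the background at the minimum of 10 reads used here, and 7 members had an unadjusted p under 0.05. The share of all genes called depended on the read minimum, and most members were well read. It was 6.26% at a minimum of 1 read and 19.6% of 6491 genes at 50 reads. At 50 reads, 6 of 43 members passed. In edgeR's exact test the spread between the libraries served as the error, with a common coefficient of variation of 21.5%. By it 0 members passed and 0 had an unadjusted p under 0.05, while 0.244% of all genes passed. That spread includes the differences being tested, so the lack of calls does not show that the members are alike.

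Psme1 had 129 reads in replicate 1 and 150 in replicate 2. After scaling, its level in replicate 1 was 0.581 times that in replicate 2 (interval 0.456 to 0.741, exact binomial test, adjusted p = 0.000225). Psme2, its partner, which also lies on chromosome 14, had 209 and 195 reads and a ratio of 0.725 (interval 0.593 to 0.885, adjusted p = 0.0174). The other activator genes Psme3 and Psme4 also had ratios under 1, at 0.845 and 0.879, and did not pass.

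Psmb6 had 398 reads in replicate 1 and 347 in replicate 2, a ratio of 0.775 (interval 0.670 to 0.898, exact binomial test, adjusted p = 0.00866). Psma6 had 154 and 147 reads, a ratio of 0.708 (interval 0.561 to 0.894, adjusted p = 0.0334). Of the 14 constitutive core genes, 11 had a log2 ratio below 0 and these 2 passed. Over all 46 members tested, 22 lay above 0 and 24 below, and the median of all genes tested was -0.00457.

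Psmd3 had 371 reads in replicate 1 and 191 in replicate 2, a ratio of 1.31 (interval 1.10 to 1.57, exact binomial test, adjusted p = 0.0245). Psmd12 had 344 and 177 reads, a ratio of 1.31 (interval 1.09 to 1.58, adjusted p = 0.0323). Both are structural subunits of the lid. Of the 17 cap genes, 13 had a log2 ratio above 0 and these 2 passed, with 7 of the 8 lid genes above 0. The counts of sign by role were not tested. All these directions are relative to the bulk of genes: scaled to spike-in totals, the median log2 ratio of all genes moves to 0.32, 18 members pass, 17 of them higher in replicate 1, and Psmb6, Psma6 and Psme2 no longer pass. None of the 3 immunoproteasome genes, the 6 ATPase genes, the 3 other base genes or the 7 chaperone genes passed the binomial test, and of these 19 the nearest to it, Psmb10, had a ratio of 1.38 (interval 0.954 to 2.03, adjusted p = 0.327).

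Summed by role, the cap genes stood at 1.08 times (interval 1.03 to 1.12) in replicate 1 against replicate 2, the constitutive core genes at 0.90 times (interval 0.854 to 0.947) and the immunoproteasome genes at 1.16 times (interval 0.906 to 1.5). Transcript length moved with the ratio. Over the 46 members the length of the main isoform and the log2 ratio had a Spearman rho of 0.50, whereas over all 11068 genes it was -0.08. The members higher in replicate 2 had main isoforms of 1112, 798, 962 and 1042 bases (Psme1, Psmb6, Psme2 and Psma6), and those higher in replicate 1 had 2148 and 1904 bases (Psmd3 and Psmd12). Length also went with role, with a median main isoform of 1162.5 bases in the constitutive core genes and 1591 bases in the cap genes. Length and role therefore cannot be told apart here, and the part of length in these ratios was not tested. Markers of muscle, fat and immune cells also differed between the libraries, and so did most of those of the gland itself. Of 6 cortex markers, Cyp11a1, Cyp11b1 and Cyp11b2 passed the binomial test with ratios of 1.06, 1.54 and 1.51. Star and Nr5a1 passed with ratios of 0.681 and 0.657, and Hsd3b1, at 0.995, did not pass. Of 5 medulla markers, Th, Chga and Chgb passed with ratios of 1.53, 1.31 and 1.28. Dbh, at 1.52, and Pnmt, in the other direction at 0.879, did not pass. The part of these marker differences in the member ratios was not tested.

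**Figure D3:**
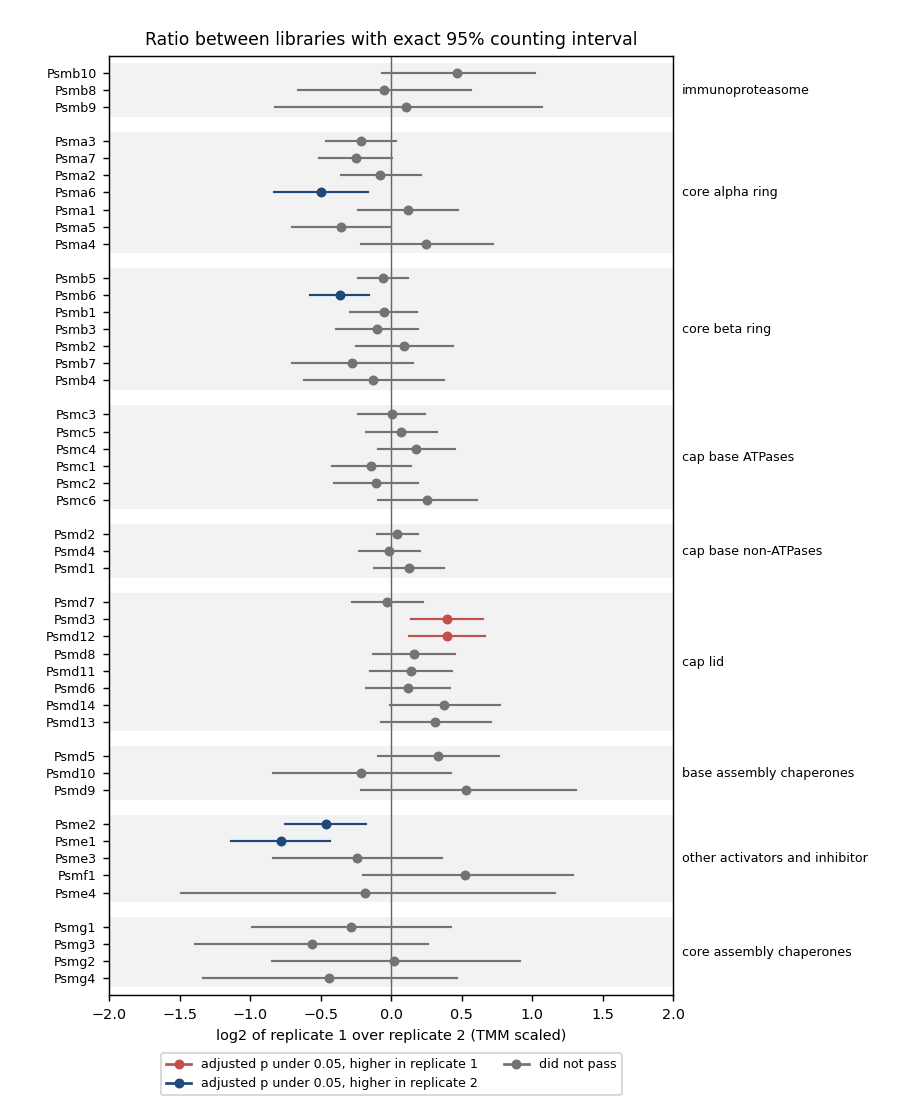
Log2 ratio of replicate 1 over replicate 2 after TMM scaling for 46 members, with exact 95% counting intervals, grouped by role. Psmd3 and Psmd12 pass the binomial test to the right, Psme1, Psme2, Psmb6 and Psma6 to the left, and the other 40 do not pass.

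Most proteasome genes were read chiefly as 1 isoform. With at least 20 reads in each library, 44 members could be measured, and the median share of the main isoform was 90.2% in replicate 1 and 85.1% in replicate 2, against 74.6 and 70.7% over all 6413 genes measured. The mean share was at least 80% in 31 members, or 70.5%, against 38.1% of all genes measured. Members and all genes were not matched for read number or length. The main isoform was an annotated transcript in 42 of the 44, the exceptions being Psmc2 and Psmd1. Psmb9, Psme4 and Psma8 had too few reads.

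Of the member reads, 86.2% in replicate 1 and 82.9% in replicate 2 lay on annotated transcripts, against 77.1 and 73.1% for all protein-coding genes. Reads on new combinations of annotated splice sites made up 0.958 and 2.16%, against 4.02 and 4.57% for all coding genes. Reads on models with unannotated splice sites made up 1.56 and 2.23%, against 3.11 and 3.34%. These differences were not tested.

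The main isoform share was lower in replicate 2 in 35 of 44 members, and in 63.3% of all genes measured. Fisher's exact test (two-sided, adjusted by Benjamini-Hochberg over 6223 genes) found a difference in 1 of 43 members, while it did so in 2.39% of all genes. That member was Psmd6, a lid gene, whose main isoform Psmd6-201 held 232 of 244 reads, 95.1%, in replicate 1 and 124 of 152 reads, 81.6%, in replicate 2 (adjusted p = 0.00321). New spliced isoforms of Psmd6 made up 1.23% of its reads in replicate 1 and 13.2% in replicate 2. The most abundant of these kept intron 6, of 1519 bases, and had 2 reads in replicate 1 and 8 in replicate 2. Among annotated transcripts alone the Psmd6 share did not pass the test (Fisher's exact test, adjusted p = 1).

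**Figure D4:**
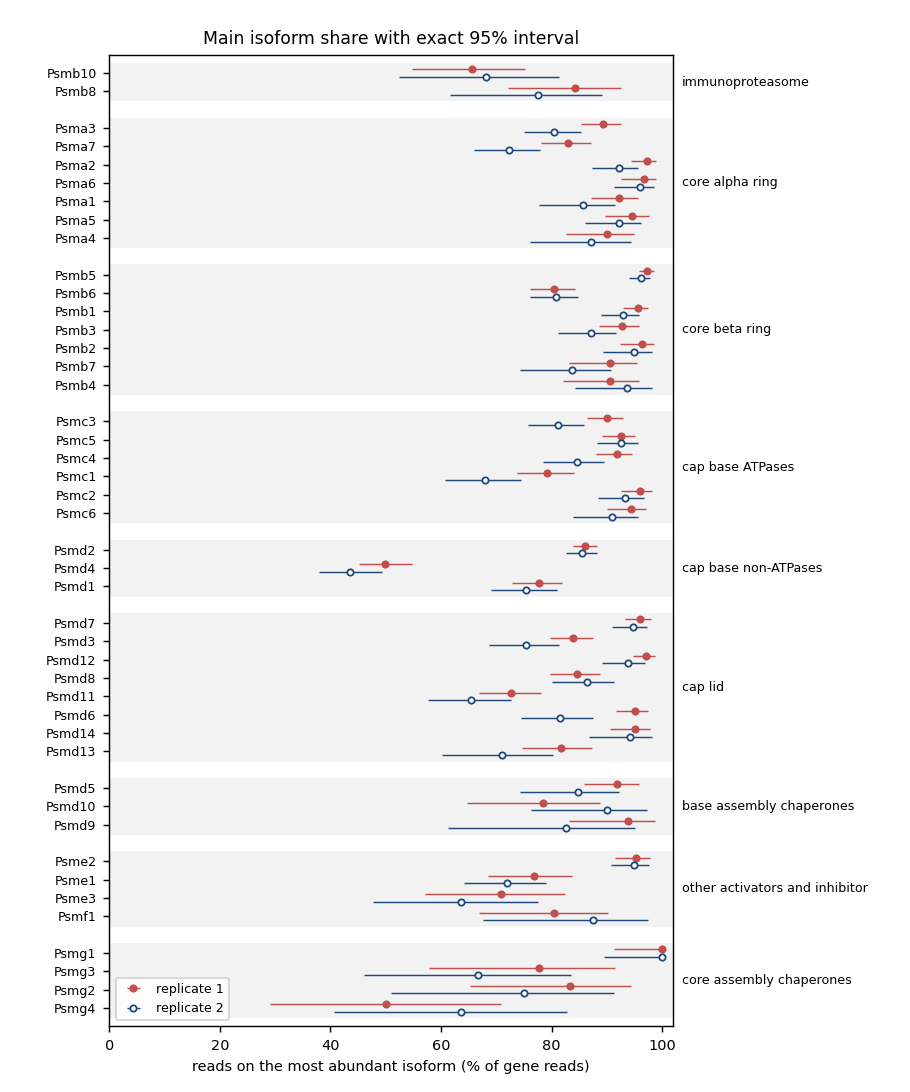
Share of each gene's reads on its most abundant isoform (%) in replicate 1 (filled, upper) and replicate 2 (open, lower) for 44 members, with exact 95% intervals. Most shares lie above 80%, Psmd4 is lowest on average, at 49.9 and 43.5%, and Psmd6, at 95.1 and 81.6%, is the member past the test.

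Psmd4 was the only measured member with a mean main isoform share under 50%. The printed forms Psmd4-202, without the 9 bases, and Psmd4-201, with them, had 220 and 168 reads in replicate 1 and 131 and 101 reads in replicate 2. The form without the 9 bases made up 56.7% of the pair in replicate 1 (51.6 to 61.7%) and 56.5% in replicate 2 (49.8 to 62.9%), so the proportion was alike in both libraries. The coding sequences are 1128 and 1137 bases long, and the reading frame is kept.

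Other genes were also read as a second isoform. Psmd11-214, which has the same coding length of 1266 bases as Psmd11-201 and a total of 1626 against 2848 bases, made up 23.5% of the pair in replicate 1 and 25.4% in replicate 2. Psmd10-202, whose coding sequence is 453 bases against 693 for Psmd10-201, had 10 reads in replicate 1 and 1 read in replicate 2, and the main isoform share of Psmd10 did not pass the test (Fisher's exact test, adjusted p = 0.639). Psmg4-201 and Psmg4-202 had 12 reads each in replicate 1 and 8 and 14 reads in replicate 2, so these few reads gave Psmg4-201 a share of its pair of 50% in replicate 1 and 36.4% in replicate 2. Psmb6-202, annotated as a retained intron with no coding sequence, made up 14.4% of its pair with Psmb6-201 in replicate 1 and 15.7% in replicate 2, and it holds most of the retained-intron reads of the members, which numbered 84 and 89 in all.

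Most spliced reads of Psmd1, the scaffold gene of the cap base, were assigned to models without the last annotated exons. Of these reads, 299 of 353, or 84.7% (interval 80.5 to 88.3%), in replicate 1 and 178 of 218, or 81.7% (interval 75.9 to 86.6%), in replicate 2 had exon 22 of 25 as their last exon. The last exon, 25, was reached by 20 and 16 reads, and exon 21 was the last for 31 and 19. The full-length transcript Psmd1-201 had 18 reads in replicate 1 and 10 in replicate 2. The 3 exons after exon 22 hold 291 of the 2859 coding bases. In both libraries the deposited model ends where another annotated Psmd1 transcript ends, so the base at which single reads stopped is not known. Whether Psmd1 transcripts themselves end there was not tested.

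The Psmc2 reads began late by the annotation. The 235 bases of exon 1 of Psmc2-201 (chromosome 5, 21785283 to 21785517) were used by 1 spliced read in each library. Exon 2, 21786650 to 21786884, was the first exon in 219 of 225 spliced reads, 97.3% (interval 94.3 to 99.0%), in replicate 1 and in 158 of 162, 97.5% (interval 93.8 to 99.3%), in replicate 2. The annotated coding sequence begins in exon 2, at 21786689, and the second RefSeq start lies downstream of it in the same exon, at 21786747. The deposited model starts at the first base of exon 2 in both libraries, so the starts of single reads are not known. Without Psmc2 and Psmd1, the share of member reads on annotated transcripts was 91.3% in replicate 1 and 87.6% in replicate 2.

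**Figure D5:**
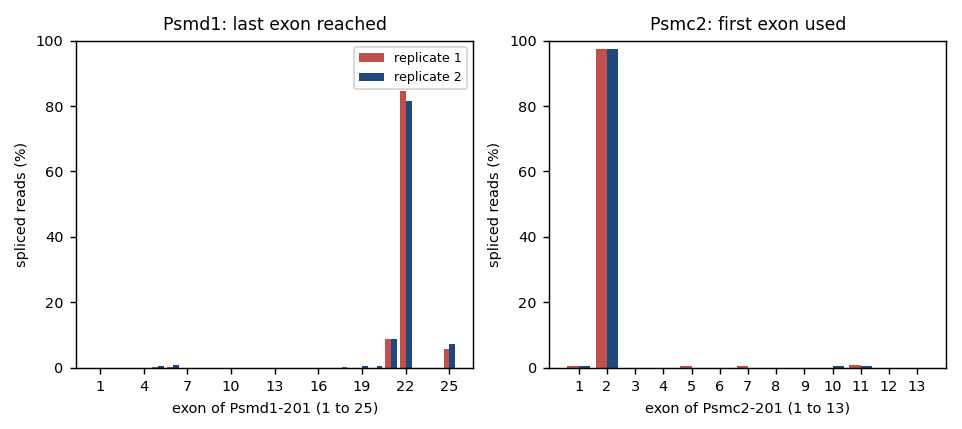
Last exon of Psmd1-201 reached (left panel) and first exon of Psmc2-201 used (right panel) by spliced reads of each gene, in % of its spliced reads, for replicate 1 (left bars) and replicate 2 (right bars). Exon 22 is last for 84.7 and 81.7% of the Psmd1 reads, and exon 2 is first for 97.3 and 97.5% of the Psmc2 reads.

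New spliced isoforms of the members were many and thin. Of 355, 275 had 1 read in all, 58 were read in both libraries, and 7 had at least 5 reads in a library, all 7 of them present in both. The most abundant belonged to Psmd8, with 9 reads in replicate 1 and 6 in replicate 2, and had 1 unannotated intron in place of the first 3. Next came a Psmd4 form, with 4 and 7 reads, that kept intron 6, of 539 bases, and the same intron was kept by a form with the 9 added bases, with 2 and 8 reads. In Psmd2, a form with a junction of intron 6 moved by 2 bases had 4 and 6 reads, and one with a junction of intron 15 moved by 2 bases had 9 reads in replicate 1 and 1 in replicate 2.

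Genes that work with the proteasome but lie outside the Psm names were read as well. Of 10 partner genes, all had reads, with a median log2 ratio of -0.17. By the binomial test, 0 were higher in replicate 1 and 2 in replicate 2, against 5.88 and 5.74% of all genes tested. For this and the following gene lists, p-values cover counting error only and directions are relative to the bulk of genes. The 4 highest were Sem1, a small lid subunit, at 173 ± 48.0 CPM (mean ± SD, n = 2 here and below), Pomp, the maturation factor of the core, at 167 ± 32.7 CPM, Adrm1, a ubiquitin receptor, at 147 ± 11.2 CPM, and the deubiquitinase gene Usp14, at 117 ± 12.6 CPM. Sem1 passed, with 196 reads in replicate 1 and 193 in replicate 2 (exact binomial test, log2 ratio -0.54, adjusted p = 0.0043), as did Ecpas, which encodes a proteasome adaptor, with 52 and 65 reads (log2 ratio -0.88, adjusted p = 0.0153). Sem1 and Pomp thus lay in the range of the core genes, above every Psm chaperone.

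Of 10 genes that control the transcription of proteasome genes, 9 could be tested. Of these, 2 were higher in replicate 1 and 2 in replicate 2, against 5.88 and 5.74% of all genes tested. Nfe2l1, the factor that raises proteasome genes when proteasomes fail, was highest, at 674 ± 87.2 CPM, with 865 and 687 reads (exact binomial test, log2 ratio -0.23, adjusted p = 0.0203). Ddi2, whose protease activates it, had 34 and 49 reads (log2 ratio -1.09, adjusted p = 0.0115). Ngly1, which removes its glycans, had 226 and 100 reads (log2 ratio 0.61, adjusted p = 0.00582). Keap1, which holds the related factor Nfe2l2 in check, had 223 and 106 reads (log2 ratio 0.50, adjusted p = 0.0294).

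Of 15 genes of ubiquitin receptors and the unfoldase, 14 had reads and 13 were tested. Of these, 2 were higher in replicate 1 and 1 in replicate 2, against 5.88 and 5.74% of all genes tested. Vcp, the unfoldase that extracts substrates for the proteasome, reached 1349 ± 112 CPM, above every member, with 2019 and 1186 reads (exact binomial test, log2 ratio 0.20, adjusted p = 0.00232). Zfand5, which encodes a proteasome-binding zinc finger protein, followed at 396 ± 56.9 CPM (log2 ratio 0.33, adjusted p = 0.0114), then Faf1 at 177 ± 22.6 CPM and Ufd1, a cofactor of Vcp, at 100.2 ± 3.62 CPM, which did not pass. Ubqln4, a shuttle gene, had 53 reads in replicate 1 and 82 in replicate 2 (log2 ratio -1.19, adjusted p = 8.48e-05). Ddi1 had 0 reads in both libraries.

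Of 9 genes that load peptides on MHC class I, the step after the immunoproteasome, all had reads and 8 were tested. Of these, 2 were higher in replicate 1 and 0 in replicate 2, against 5.88 and 5.74% of all genes tested. The highest were the chaperones Pdia3, at 537 ± 61.3 CPM (exact binomial test, log2 ratio 0.27, adjusted p = 0.0181), and Canx, at 442 ± 37.5 CPM, then B2m, the light chain of MHC class I, at 233 ± 0.902 CPM, and Tap2, at 219.7 ± 45.7 CPM (log2 ratio 0.46, adjusted p = 0.00769). Tap2 and its partner in the peptide transporter, Tap1, differed in level, Tap1 having 60 and 26 reads against 356 and 175 for Tap2.

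Promoters were searched for the core of the element bound by Nfe2l1 and Nfe2l2, TGACNNNGC on either strand, in RefSeq windows (GRCm38.p6) from 250 bases before to 50 bases after each start. Of the 48 annotated members 40 matched a window. Not matched were Psma8, Psmb1, Psmb2, Psmb7, Psmc3, Psmd3, Psmd7 and Psmg2. The motif was found in 6 of 40 members, 15%, and in 14% of 27025 genes. Those of Psmb5, Psmb6 and Psmd9 read in the direction of the gene within 50 bases before its start, at chr14:54618024-54618052 (minus strand), chr11:70525338-70525366 (plus strand) and chr5:123228149-123228177 (plus strand), and are shown with the motif in capitals.
Psmb5: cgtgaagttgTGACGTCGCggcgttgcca
Psmb6: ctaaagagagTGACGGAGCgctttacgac
Psmd9: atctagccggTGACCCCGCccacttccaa
The other 3 were Psmc6, Psmd12 and Psme4. The 15% of members is near the 14% of all genes. The share of all genes with the motif in the direction and distance of the printed 3 was not determined. The CCAAT box, searched separately on both strands, was found in 14 of 40 members, 35%, and in 41.1% of genes. A match is a description of letters and not of a bound site.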

How the data were processed

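Per the labels, long-read RNA libraries were made from adrenal gland RNA. The deposited counts are whole numbers of long reads per transcript model, per the file headers, on mm10 with GENCODE M21 and without normalization. Coordinates and other model features come from the deposited annotation of each library. The aligner, the version of the program and any read filter are not given in the sources used here.

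Counts were summed per gene over all models. CPM used annotated gene totals, and left out ERCC spike-ins and unannotated genes, which took 3.22 and 5.85% of mouse reads. Ratios are replicate 1 over replicate 2 with TMM scaling and a prior of 0.5 reads for log2 ratios. Fold intervals have no prior. With 1 group, a quasi-likelihood contrast could not be fitted, so an exact binomial test (doubled smaller tail) was used for genes with at least 10 reads, beside edgeR's exact test. All p-values were adjusted over all genes tested, at 0.05.

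Isoforms were matched by identifier when annotated and by intron chain when not, and single-exon models of a gene were pooled. A model missing exons at one end of an annotated transcript is an isoform of its own here. Of the members, 9 overlap another gene on the same strand and 18 one on the other strand, and how reads were split there was not tested. Pseudogene transcripts were aligned to members with minimap2, keeping matches of at least 300 bases and 90% identity.

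Members, lists and tests were chosen with earlier results of these data known. Named were the catalytic genes, the highest and lowest gene of each role, genes past a test, members at 0 or with a main isoform under 50%, the 5 most abundant new isoforms, and the 4 highest, the zeros and the passing genes of each partner list. Other members were named to account for the set, and the second isoforms, Psmd1, Psmc2, Tap1, Psmd14 and the marker genes after their values were seen. Alternatives covered DESeq2 size factors, gene totals, spike-in totals, read minimums of 1 and 50, annotated transcripts only, omission of incomplete splice matches and genomic models, thinning, a chi-square test over isoforms and leaving out each library. Some items that these rules would name are not reported here. The steps were tested on simulated data. Scripts used minimap2 2.31, matplotlib 3.10.9, statsmodels 0.14.6 and scipy 1.17.1 under Python 3.11.15, and DESeq2 1.42.0 and edgeR 4.0.16 under R 4.3.3.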

Additional observations from a re-analysis of the deposited data

Results flagged for a closer look

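Reads also fell on relatives of the members that the symbol rule leaves out. Psme2b, a coding gene named after Psme2, had 9 reads in replicate 1 and 4 in replicate 2, above the limit that a count of 0 allows, against 209 and 195 reads of Psme2. Pseudogenes that align to members held 16 reads in replicate 1 and 10 in replicate 2, spread over 6 pseudogenes. The highest was Gm4118, with 9 and 4 reads and 91.9% identity to Psma2 over 644 bases. Gm13835 matches Psma3 over 685 bases without a difference and had 3 and 2 reads, against 307 and 241 reads of Psma3.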

How the results depend on the processing

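Scaling to ERCC spike-in totals moved the median log2 ratio of all genes to 0.32 and that of members to 0.31, called 18 members (17 higher in replicate 1) and 21.3% of all genes, and ended the calls of Psmb6, Psma6 and Psme2. Under edgeR's exact test, whose error includes the differences being tested, 0 members passed. Under the other settings for scaling, read minimum, models and depth, 4 to 6 members passed, against 6.26 to 19.6% of all genes tested. Psme1, Psme2 and Psmb6 were among the passing members each time, whereas Psmd12, Psmd3 and Psma6 each lost their call under at least 1 setting. None of these 6 genes changed sign under any of these settings. The members' median log2 ratio of -0.02 did change sign under DESeq2 size factors, at 0.0012, and under ERCC totals, where Psmb5 and Psmd4 passed as higher in replicate 1 although their log2 ratios were -0.06 and -0.01 under TMM.

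With annotated transcripts only, and without incomplete splice matches and genomic models, the members' share of gene reads was 0.811 and 0.768%, the core share of member reads 39.5 and 38.7%, the fold range of core genes 8.03 and 7.69, and the median main isoform share 99.3 and 95.4%. By construction these settings remove the reads on incomplete models. With annotated transcripts only, 0 members passed the isoform test, and Psmd6 had an adjusted p of 1 (Fisher's exact test), against 0.000101 to 0.00981 under the other alternatives. Leaving out each library gave 0.709 to 0.734% of gene reads, 34.2 to 37.6% for core genes, 1.47 to 1.74% for immunoproteasome genes, 10.3 to 13.3% of catalytic reads, a fold range of 7.19 to 7.54 and a median main isoform share of 85.1 to 90.2%. No paired analysis was possible because the series holds 1 group.

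Depth limits the low genes, where the ratio of Psme4, for example, has an interval of 0.356 to 2.24.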
